A study of Mus musculus with 24 samples.

Results

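The genes described here are Lpl, which encodes lipoprotein lipase, and 8 genes that work with the enzyme or take up what it leaves: Lmf1, Gpihbp1, Angptl4, Apoc1, Cd36, Vldlr, Lrp1 and Apoe. These 9 genes were chosen by name, all 9 were listed in each of the 5 deposited tables of comparisons, and they stand among 13162 genes listed in any table and 11917 listed in all 5. RNA was sequenced from the interscapular brown fat, a depot that burns fat to make heat, of male C57BL/6 mice aged 10 to 12 weeks, taken at ZT10 (10 h into the light-dark cycle). Every mouse carried floxed Hdac3 alleles, on which Cre recombinase can act. Control mice had these alleles alone, and KO mice had in addition a Ucp1-cre transgene, whose Ucp1 promoter limits Cre mainly to brown adipocytes. The enzyme encoded by Hdac3 removes acetyl groups from histones as part of nuclear receptor corepressors. In each genotype, mice were kept at 22 °C throughout, or spent 24 h at 15 °C and were then returned to 22 °C for 24 h (1 day) or for 7 d. This gave 6 groups of 4 libraries. No group was sampled in the cold itself. The comparisons ask what a short cold exposure leaves behind in brown fat and how this differs without Hdac3.

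Lipoprotein lipase splits the triglyceride of chylomicrons and very low density lipoproteins at the capillary wall, and brown fat in the cold is known for drawing large amounts of fat from plasma in this way. The enzyme is folded with the help of LMF1 in the endoplasmic reticulum of the adipocyte, carried across the endothelial cell and held in the capillary by GPIHBP1, and inactivated by ANGPTL4. The freed fatty acids enter cells partly through CD36, while VLDLR and LRP1 take up whole particles or their remnants by binding apolipoprotein E. APOC1 is a small apolipoprotein that hinders both the lipase and remnant uptake.

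The levels given are the authors' deposited group means, read as RPKM (read numbers divided by gene length and by library size), which can be compared between genes. Fold changes, p-values and adjusted p-values are from the authors' deposited tables, made with edgeR per the submitters' processing notes, and a change was called where the adjusted p was under 0.05. Values of single libraries were not used here, so a spread over libraries is not shown. The standard error after each ± sign was rebuilt here from the deposited fold change and p. Nothing in the labels ties each library to a separate mouse, and p-values thus reflect library-to-library spread alone. Recovered library totals lay between 4.64e+06 and 1.25e+07 reads and averaged 8.39e+06 ± 1.90e+06 (SD, n = 24). The member with the fewest reads was Lmf1 in KO at 22 °C, at about 132 reads per library, and the one with the most was Lpl in KO at 24 h of recovery, at about 107427. The deposited mean of Hdac3 was 25.4 to 27.1 RPKM in the Control groups and 6.43 to 8.57 RPKM in the KO groups, lower in KO at each time (adjusted p from 4.6e-37 to 9.9e-21). In bulk tissue, fewer cells of a type and less RNA per cell cannot be told apart.

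In Control at 22 °C the deposited means ran from 18.3 RPKM for Lmf1 to 874 RPKM for Apoe. In rising order between these were Vldlr (35.2 RPKM), Lrp1 (37.3 RPKM), Gpihbp1 (83.1 RPKM), Angptl4 (258 RPKM), Apoc1 (463 RPKM), Lpl (665 RPKM) and Cd36 (757 RPKM). Vldlr and Lrp1, or Lpl and Cd36, cannot be ordered beyond their spread, since errors of the means were not used here. The transcripts for the lipase, the fatty acid receptor and the ligand were thus the abundant ones, and those for the lipase chaperone and the particle receptors the rare ones.

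**Figure D1:**
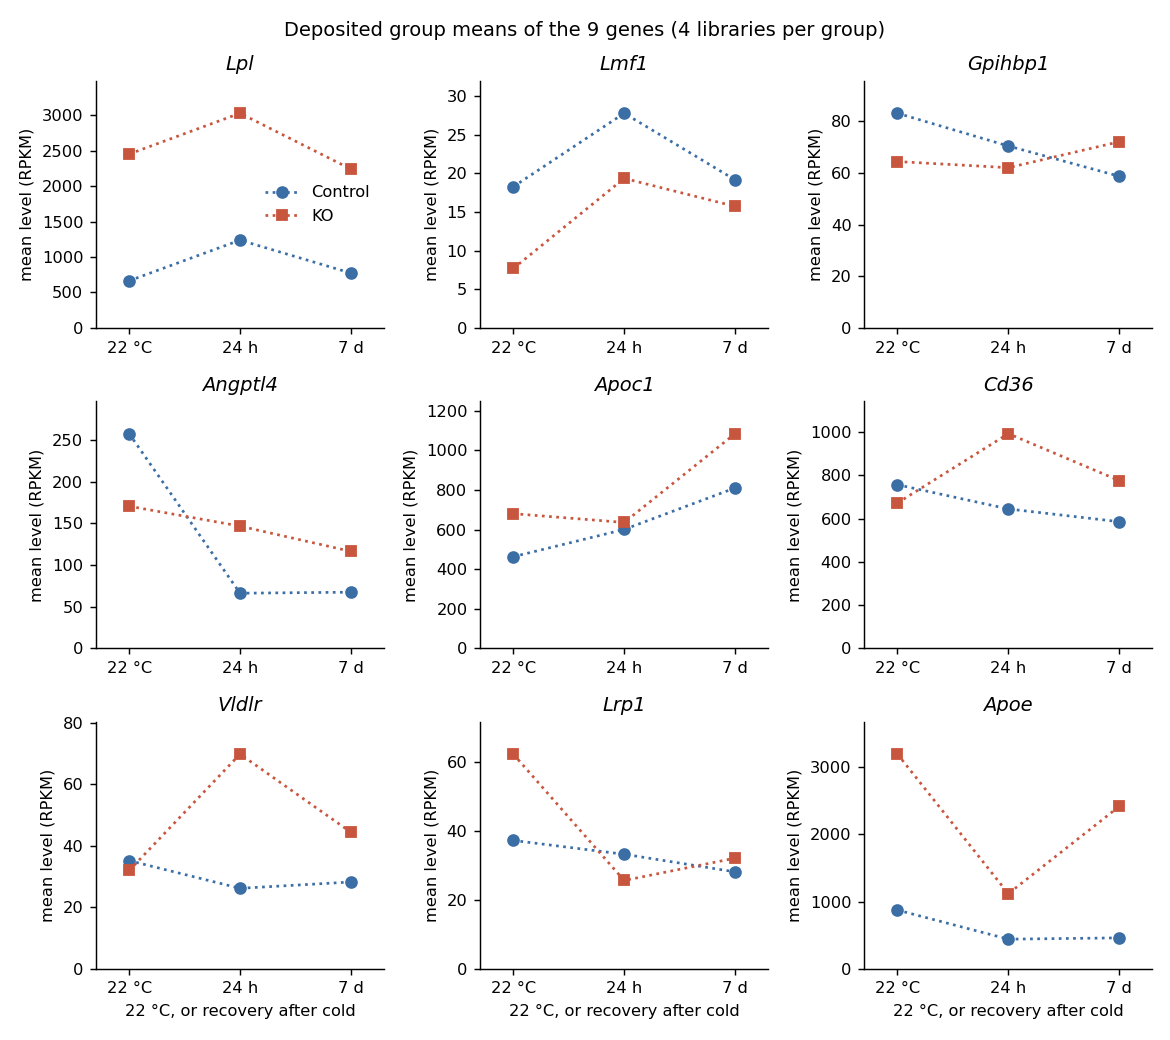
Deposited mean level in RPKM (vertical axes, from 0, a scale per gene) of the 9 genes in Control (circles) and KO (squares) at 22 °C and at 24 h and 7 d of recovery after cold; each point is the mean of 4 libraries, errors of the means are not shown, and dotted lines only join points of a genotype. Lpl and Apoe lie higher in KO at every time, for example 2239.9 against 774 RPKM at 7 d for Lpl and 3196 against 874 RPKM at 22 °C for Apoe. Vldlr and Cd36 part from Control after recovery.

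Promoter sequences were available for 5 of the 9 genes in the RefSeq table of build GRCm38.p6: Lmf1, Cd36, Vldlr, Lrp1 and Apoe. Lmf1 also rose in KO mice at 24 h of recovery (1.29 log2), and its window is not shown. The 250 bases before the most upstream start are shown for the 4 others, whose transcripts moved in opposite directions in KO mice after recovery: Vldlr and Cd36, which rose, and Lrp1 and Apoe, which fell. They are at chr19:27216234-27216483 (Vldlr, plus strand), chr5:17835897-17836146 (Cd36, minus strand), chr10:127621149-127621398 (Lrp1, minus strand) and chr7:19699189-19699438 (Apoe, minus strand). Each is written 5′ to 3′ on the strand of its gene and ends at the base before the start. Capitals mark the nuclear receptor site AGGTCA and the GC box GGGCGG on either strand, and these motifs did not overlap each other.
Vldlr: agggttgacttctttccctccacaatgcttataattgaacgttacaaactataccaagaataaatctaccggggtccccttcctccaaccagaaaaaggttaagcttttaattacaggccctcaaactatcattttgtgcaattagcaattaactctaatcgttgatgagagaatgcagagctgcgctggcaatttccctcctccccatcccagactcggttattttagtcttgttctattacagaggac
Cd36: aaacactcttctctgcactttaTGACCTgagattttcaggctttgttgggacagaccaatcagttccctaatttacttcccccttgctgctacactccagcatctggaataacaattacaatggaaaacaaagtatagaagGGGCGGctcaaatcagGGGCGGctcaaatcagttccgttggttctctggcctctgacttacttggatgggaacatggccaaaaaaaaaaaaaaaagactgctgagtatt
Lrp1: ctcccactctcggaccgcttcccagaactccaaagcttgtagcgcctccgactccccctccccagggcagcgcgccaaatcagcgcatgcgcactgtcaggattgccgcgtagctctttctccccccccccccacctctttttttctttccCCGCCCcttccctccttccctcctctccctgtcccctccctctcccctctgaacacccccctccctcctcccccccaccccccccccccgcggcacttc
Apoe: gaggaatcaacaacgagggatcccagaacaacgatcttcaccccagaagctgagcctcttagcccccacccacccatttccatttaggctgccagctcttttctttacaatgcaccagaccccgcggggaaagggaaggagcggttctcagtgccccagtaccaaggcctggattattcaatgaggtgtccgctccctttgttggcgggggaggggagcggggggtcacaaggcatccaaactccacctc
The Cd36 window held AGGTCA on the minus strand at -228 to -223 and GGGCGG on the plus strand at -109 to -104 and -93 to -88, counted back from the start, within a repeat of the same bases. The Lrp1 window held GGGCGG on the minus strand at -99 to -94, and the Lmf1 window, not shown, at -108 to -103. The Vldlr and Apoe windows held neither. Of 32851 promoter windows of the same length, 14.0% held AGGTCA and 32.7% held GGGCGG on either strand. The CCAAT box, CCAAT, lay in 33.8% of windows and in that of Cd36 alone among the 5, at -195 to -191. The E-box CACGTG (6.02% of windows), the cAMP response element TGACGTCA (1.55%), and AGGTCA direct repeats with a spacer of 1 base (0.0335%) or 4 bases (0.0152%) were in none of the 5. GC content was 41.6% for Vldlr, 43.2% for Cd36 and 66.8% for Lmf1, which rose in KO recovery. It was 67.2% for Lrp1 and 57.2% for Apoe, which fell. The median over all windows was 52.4% (quartiles 45.2% and 61.2%). These matches describe letters and not binding.

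Without cold, KO brown fat held more transcript of the lipase and of the ligand. At 22 °C the deposited table called Lpl, Apoe, Apoc1 and Lrp1 higher in KO and Lmf1 lower, and did not call Gpihbp1, Angptl4, Cd36 or Vldlr. Lpl was 4.33-fold and Apoe 4.35-fold higher, the largest folds among the 9 in that table. That is 5 of 9 genes called, where 34.3% of the 12710 genes of the table were called, 16.3% higher and 18% lower. The median deposited log2 fold change was 0.09 over the 9 genes and -0.01 over all genes of the table. The authors' normalization matters for small changes here, because the plain ratio of KO to Control means at 22 °C had a median of -0.25 log2 over all genes (-0.19 at 24 h). Cd36 and Vldlr thus had lower means in KO at 22 °C, and deposited log2 fold changes just above 0.

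After 24 h of recovery, the genes for the lipase, its inhibitor ANGPTL4 and the uptake receptors CD36 and VLDLR were all higher in KO. The deposited table called Lpl, Angptl4, Cd36, Vldlr and Apoe higher and Lmf1 lower, which is 6 of 9 genes, where 18.5% of the 12657 genes of the table were called (10.5% higher, 7.96% lower). The median deposited log2 fold change of the 9 genes was 0.77, against -0.05 over all genes. By 7 d the 5 genes called higher were again Lpl, Angptl4, Cd36, Vldlr and Apoe, and none was called lower. At 7 d, 15.3% of the 12467 genes listed were called (9.18% higher, 6.14% lower). The median over the 9 genes was 0.49, against -0.01 over all genes. Lrp1 and Apoc1, higher in KO at 22 °C, were called at neither recovery time.

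**Figure D2:**
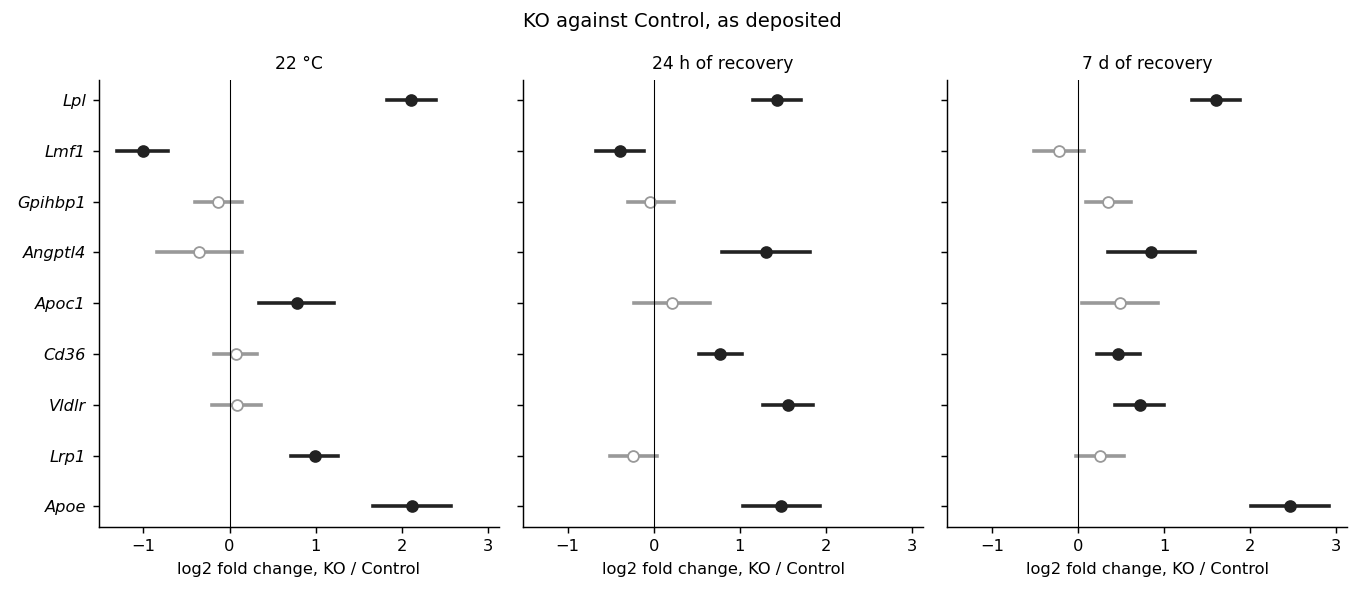
Deposited log2 fold change of KO over Control (horizontal axes) for the 9 genes at 22 °C, 24 h and 7 d of recovery; points are the deposited values, bars the 95% interval from the rebuilt error, and filled points passed an adjusted p of 0.05. Lpl and Apoe stay right of 0 in all 3 panels, Angptl4, Cd36 and Vldlr are right of 0 with filled points at 24 h and 7 d, and Lmf1 is left of 0 with a filled point at 22 °C and 24 h.

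Recovery itself was compared with 22 °C at 24 h in each genotype. In Control mice, Lpl and Lmf1 were higher 24 h after the cold and Angptl4, Apoe and Vldlr lower, so the transcripts of the lipase and its chaperone rose while that of the inhibitor fell 3.72-fold. These are 5 of 9 genes, where 21.8% of 12830 genes were called (13.1% higher, 8.67% lower). In KO mice the called genes were Lmf1, Vldlr and Cd36, which rose, and Apoe and Lrp1, which fell. These are also 5 of 9 genes, in a table where 41.9% of 12577 genes were called (22.1% higher, 19.8% lower), so the share of members called is close to that of all genes. The median deposited log2 fold change of the 9 genes was -0.17 in Control and -0.08 in KO, against 0.01 and -0.02 over all genes. Lmf1 (higher) and Apoe (lower) were called in the same direction in both genotypes, and Vldlr in opposite directions.

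The difference between the genotypes in the recovery effect was then tested gene by gene, as the KO minus the Control log2 fold change, over the 10923 genes for which an error could be rebuilt in both tables. It passed for 6 of the 9 genes, where 17.6% of all genes tested passed (10.6% above 0, 6.96% below 0). Vldlr, Angptl4, Cd36 and Lmf1 lay above 0, and Lrp1 and Lpl below 0. Apoe (-0.64 ± 0.32, adjusted p = 0.163, 95% interval -1.26 to -0.02), Apoc1 (-0.56 ± 0.32, adjusted p = 0.232, 95% interval -1.19 to 0.06) and Gpihbp1 (0.09 ± 0.19, adjusted p = 0.809, 95% interval -0.28 to 0.47) did not pass. The same difference is the change of the KO effect from 22 °C to 24 h of recovery, since both are made from the same 4 groups.

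**Figure D3:**
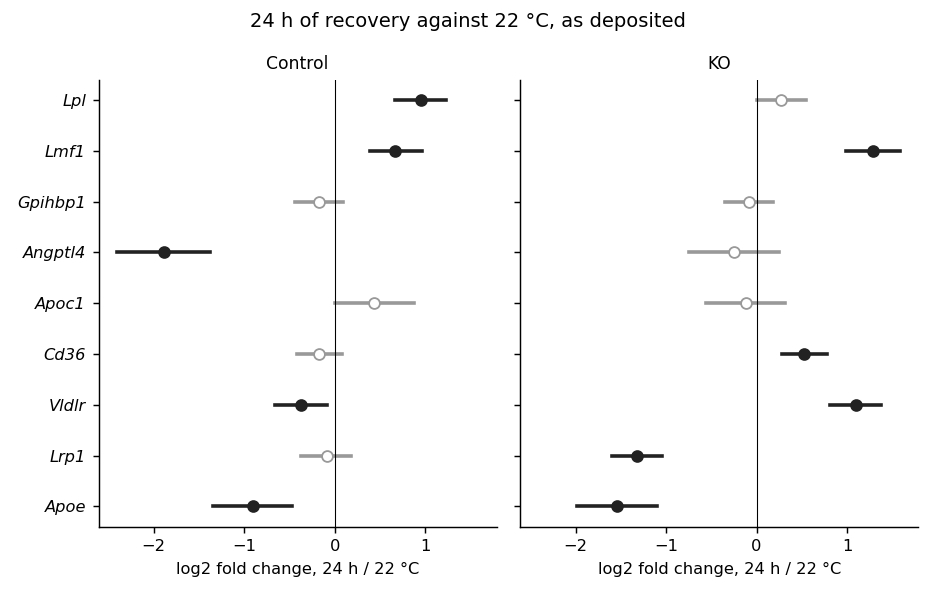
Deposited log2 fold change of 24 h of recovery over 22 °C (horizontal axes) for the 9 genes in Control and KO; points are the deposited values, bars the 95% interval from the rebuilt error, and filled points passed an adjusted p of 0.05. Angptl4 is far left of 0 in Control (-1.89) and near 0 in KO (-0.25), Vldlr is left of 0 in Control (-0.37) and right of it in KO (1.10), and Lrp1 is near 0 in Control (-0.09) and left of it in KO (-1.32).

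Lpl, the gene of the lipase, had deposited means of 665, 1238 and 774 RPKM in Control at 22 °C, 24 h and 7 d of recovery, and of 2452, 3027 and 2239.9 RPKM in KO. Every KO mean lay above every Control mean. The deposited log2 fold change of KO over Control was 2.11 ± 0.15 at 22 °C (adjusted p = 3.8e-44), 1.43 ± 0.14 at 24 h (adjusted p = 1.1e-20) and 1.60 ± 0.14 at 7 d (adjusted p = 3.5e-25). By its deposited p, Lpl ranked 15 among all genes at 22 °C, 22 at 24 h and 5 at 7 d. In Control it rose 1.93-fold at 24 h of recovery, by 0.95 ± 0.14 log2 (adjusted p = 2.5e-09). In KO the deposited log2 fold change at 24 h was 0.27 ± 0.14 (adjusted p = 0.116), and the recovery effect differed between genotypes by -0.68 ± 0.20 log2 (adjusted p = 0.00639). The KO mean at 22 °C was thus already above the Control mean after cold.

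Lmf1, the gene of the lipase chaperone, ran the other way by genotype, with deposited means of 18.3, 27.8 and 19.2 RPKM in Control and 7.69, 19.4 and 15.7 RPKM in KO. Its lowest mean was that of KO at 22 °C, where the deposited log2 fold change of KO over Control was -1.01 ± 0.15 (adjusted p = 8.3e-10). At 24 h it was -0.39 ± 0.14 (adjusted p = 0.0399), and at 7 d it was -0.22 ± 0.15 (adjusted p = 0.371). The call at 24 h is close to the threshold and is lost at an adjusted p of 0.01. Recovery raised Lmf1 in both genotypes, 1.60-fold in Control (0.67 ± 0.14 log2, adjusted p = 7.8e-05) and 2.45-fold in KO (1.29 ± 0.15 log2, adjusted p = 7.5e-16). The rise was larger in KO by 0.62 ± 0.21 log2 (adjusted p = 0.0233).

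Gpihbp1, the gene of the capillary anchor, is made by endothelial cells. Its deposited means were 83.1, 70.4 and 58.7 RPKM in Control and 64.4, 62.0 and 72.0 RPKM in KO, and none of the 5 deposited comparisons called it. The nearest to the threshold was KO over Control at 7 d, at 0.35 ± 0.14 log2 (adjusted p = 0.0597, 95% interval 0.09 to 0.62). In the other 4 comparisons its deposited log2 fold change lay between -0.17 and -0.04, and the widest 95% bounds over those 4 were -0.44 and 0.23. Of 22 endothelial marker genes, 1 was called higher in KO at 22 °C and 1 at 7 d, and 2 were called lower at 24 h. Of all genes, 34.3%, 15.3% and 18.5% were called in these tables. In Control recovery 2 of the 22 rose and 1 fell, where 13.1% and 8.67% of all genes did. In KO recovery 2 rose and 6 fell, where 22.1% and 19.8% did, with a median of -0.21 log2 against -0.02 over all genes. Their summed means were 468, 369 and 356 RPKM in Control and 395, 306 and 352 RPKM in KO. Much of the change in these sums lay in Aqp1 alone, at 142, 57.0 and 88.2 RPKM in Control and 99.0, 41.4 and 82.2 RPKM in KO. Aqp1 was the marker called lower in Control recovery (-1.24 ± 0.16 log2), where Emcn and Vwf were called higher.

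Angptl4, the gene of the secreted inhibitor that inactivates the lipase, had deposited means of 258, 66.2 and 67.4 RPKM in Control and 171, 147 and 116 RPKM in KO. The Control mean at 22 °C was the highest of the 6 and those after cold were the lowest. In Control its fall at 24 h was -1.89 ± 0.26 log2, or 3.72-fold (adjusted p = 1.2e-10). In KO the deposited change was -0.25 ± 0.25 log2 (adjusted p = 0.479, 95% interval -0.75 to 0.25), and the genotypes differed by 1.65 ± 0.37 log2 (adjusted p = 1.3e-04). KO over Control was -0.35 ± 0.25 log2 at 22 °C (adjusted p = 0.326), 1.30 ± 0.26 at 24 h (adjusted p = 1.5e-05) and 0.85 ± 0.26 at 7 d (adjusted p = 0.00991). From 22 °C to 7 d the KO effect on Angptl4 moved by 1.20 ± 0.36 log2 (adjusted p = 0.00991).

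Apoc1, the gene of an apolipoprotein that inhibits the lipase, had deposited means of 463, 601 and 810.2 RPKM in Control and 680.4, 636 and 1085 RPKM in KO. The 7 d mean was the highest of the 3 in each genotype. It was called once, in KO over Control at 22 °C, at 0.78 ± 0.22 log2 (1.71-fold, adjusted p = 0.00273). At 24 h and 7 d the deposited log2 fold change of KO over Control was 0.21 ± 0.22 (adjusted p = 0.598) and 0.49 ± 0.22 (adjusted p = 0.135). Recovery gave 0.44 ± 0.22 in Control (adjusted p = 0.157) and -0.12 ± 0.22 in KO (adjusted p = 0.722). Apoc1 and Apoe are neighbouring genes on chromosome 7 in RefSeq, and of the 2 only Apoe was called in all 5 deposited comparisons.

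Cd36, the gene of the fatty acid receptor at the cell surface, had deposited means of 757, 645 and 586 RPKM in Control and 673, 993 and 776 RPKM in KO. The 3 Control means and the KO mean at 22 °C lay between 586 and 757 RPKM, and the highest was that of KO at 24 h. KO over Control was 0.07 ± 0.13 log2 at 22 °C (adjusted p = 0.762), 0.77 ± 0.13 at 24 h (1.70-fold, adjusted p = 1.0e-07) and 0.47 ± 0.13 at 7 d (adjusted p = 0.00334). At 24 h of recovery Cd36 rose 1.45-fold in KO (0.53 ± 0.13 log2, adjusted p = 1.7e-04), and its deposited change in Control was -0.17 ± 0.13 (adjusted p = 0.376). The recovery effect differed between genotypes by 0.70 ± 0.18 log2 (adjusted p = 0.00129).

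Vldlr, the gene of the receptor for triglyceride-rich particles, had deposited means of 35.2, 26.2 and 28.2 RPKM in Control and 32.0, 69.8 and 44.4 RPKM in KO. At 22 °C the genotypes were close, and the KO means after cold were the highest of the 6. In KO the level rose 2.14-fold at 24 h (1.10 ± 0.15 log2, adjusted p = 1.3e-12). In Control it fell by a smaller amount, -0.37 ± 0.15 log2, with an adjusted p of 0.0498 that only just passes. The difference between genotypes was 1.47 ± 0.21 log2 (adjusted p = 1.4e-10), the smallest p among the 9 genes in that test. KO over Control was 0.09 ± 0.15 log2 at 22 °C (adjusted p = 0.707), 1.56 ± 0.15 at 24 h (2.95-fold, adjusted p = 6.8e-23) and 0.72 ± 0.15 at 7 d (1.64-fold, adjusted p = 3.3e-05). By deposited p, Vldlr ranked 12 among all genes in the 24 h table.

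Lrp1, the gene of a large receptor for lipoprotein remnants and many other ligands, had deposited means of 37.3, 33.3 and 28.2 RPKM in Control and 62.4, 25.7 and 32.2 RPKM in KO. A single mean, that of KO at 22 °C, stood above the others. The deposited fold of KO over Control there was 1.98 (0.99 ± 0.14 log2, adjusted p = 6.5e-11), and the plain ratio of the 2 means was 0.74 log2. In KO it fell at 24 h of recovery by -1.32 ± 0.14 log2, or 2.49-fold (adjusted p = 1.3e-18), against -0.09 ± 0.14 in Control (adjusted p = 0.723). The recovery effect differed between genotypes by -1.22 ± 0.20 log2 (adjusted p = 6.9e-08), opposite in sign to that of Vldlr. KO over Control was -0.24 ± 0.14 log2 at 24 h (adjusted p = 0.273) and 0.26 ± 0.14 at 7 d (adjusted p = 0.235). In RefSeq, long non-coding genes overlap Lrp1 (Gm16217 and Gm51820) and Vldlr (Gm35438). The library kit does not mark strand, so reads of overlapping genes cannot be told apart.

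Apoe, the gene of the apolipoprotein that both receptors bind, had deposited means of 874, 441 and 460.2 RPKM in Control and 3196, 1119 and 2417 RPKM in KO. Every KO mean lay above every Control mean, and in both genotypes the 24 h mean was the lowest. KO over Control was 2.12 ± 0.23 log2 at 22 °C (adjusted p = 1.3e-18), 1.48 ± 0.22 at 24 h (adjusted p = 3.5e-09) and 2.46 ± 0.23 at 7 d (5.51-fold, adjusted p = 3.1e-23), the largest fold of any member in any comparison. At 24 h of recovery Apoe fell 1.87-fold in Control (-0.90 ± 0.22 log2, adjusted p = 7.6e-04) and 2.90-fold in KO (-1.54 ± 0.23 log2, adjusted p = 1.2e-10). It was called in all 5 deposited comparisons, as no other member was.

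Whether the KO effect after 7 d was the one seen without cold was tested from the deposited tables for 22 °C and 7 d, which share no library. The difference passed for 4 of the 9 genes, where 14.8% of the 10591 genes tested passed (9.53% above 0, 5.29% below 0). The KO effect was higher at 7 d for Angptl4 (given above), Lmf1 (0.79 ± 0.21 log2, adjusted p = 0.00314) and Vldlr (0.63 ± 0.21, adjusted p = 0.0206), and lower for Lrp1 (-0.73 ± 0.20, adjusted p = 0.00371). For Lpl it was -0.51 ± 0.21 (adjusted p = 0.0738) and for Apoe 0.34 ± 0.33 (adjusted p = 0.569, 95% interval -0.30 to 0.98). The KO effect at 7 d was also compared with that at 24 h, and 1 of the 9 genes passed, where 0.201% of 10425 genes did (0.115% above 0, 0.0863% below 0). This was Vldlr, whose KO effect was smaller at 7 d by -0.84 ± 0.21 log2 (adjusted p = 0.0348). Apoe had 0.98 ± 0.32 (adjusted p = 0.341). The comparisons with 22 °C share their 22 °C libraries and those with 24 h their 24 h libraries, so the results are not independent of each other.

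No deposited table compares 7 d with another time within a genotype, so those ratios of deposited means, centred on the median of all genes, carry no test. In Control the 7 d mean was 3.53-fold lower than that at 22 °C for Angptl4 and 1.76-fold lower for Apoe, and 1.89-fold higher for Apoc1. Lpl and Lmf1 were 1.26-fold and 1.14-fold higher than at 22 °C. In KO the 7 d mean was 1.97-fold higher than that at 22 °C for Lmf1, 1.54-fold higher for Apoc1 and 1.34-fold higher for Vldlr, and 2.01-fold lower for Lrp1, 1.52-fold lower for Angptl4 and 1.37-fold lower for Apoe. From 24 h to 7 d in KO, Apoe was 2.13-fold and Apoc1 1.68-fold higher, and Vldlr 1.59-fold lower. The summed means of 14 skeletal muscle markers, all listed, were 927 RPKM at 7 d in Control and 779 RPKM in KO, against 155 to 276 RPKM in the other groups, and 0 of the 14 were called in any deposited comparison. Skeletal muscle is known to express Lpl and Cd36, and the part of muscle RNA in the 7 d levels was not tested.

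Marker genes of other cells in the pad moved with some of the same comparisons. Of all genes, 13.1% were called higher and 8.67% lower in Control recovery, and 22.1% and 19.8% in KO recovery. In KO over Control these shares were 16.3% and 18% at 22 °C, 10.5% and 7.96% at 24 h, and 9.18% and 6.14% at 7 d. Macrophages, which also express Apoe, Lpl and Lrp1, had 22 markers summing to 185 and 435 RPKM in Control at 22 °C and 24 h and 262 RPKM in KO at 24 h. Without Spp1, which has no value in the other groups, the sums were 215 RPKM in Control at 7 d and 227 and 182 RPKM in KO at 22 °C and 7 d, over 21 markers. At 24 h in Control 16 of the 22 were called higher and 0 lower, with Cd68 at 2.32 and 10.8 RPKM, while Lpl rose, Apoe fell and Lrp1 was not called. In KO recovery at 24 h 0 of 21 were higher and 1 was lower. In KO over Control at 22 °C, where Lpl, Apoe and Lrp1 were all higher, 4 of 21 macrophage markers were higher and 0 lower. The share of markers called higher is close to the 16.3% of all genes, and their median was 0.50 log2 against -0.01 over all genes. In KO over Control at 24 h, where Lpl and Apoe were higher, 0 of 22 were higher and 3 lower, and at 7 d 0 of 21 were called. Of 12 fibroblast markers, 5 were called higher and 0 lower in Control recovery, and 0 and 3 in KO recovery. KO over Control gave 1 higher and 0 lower at 22 °C, 0 and 5 at 24 h (median -0.64 log2), and 0 and 1 at 7 d. The fibroblast sums were 337, 520 and 459 RPKM in Control and 359, 298 and 313 RPKM in KO. The 13 adipocyte markers summed to 16274 RPKM in Control and 33963 RPKM in KO at 22 °C, with 11 called higher and 0 lower. Fabp4 alone made up 8202 and 16522 RPKM of these sums, and it also stands in the lists of fatty acid entry and of PPAR targets. In KO over Control 9 of the 13 were also higher at 24 h and 7 at 7 d, with 0 lower at either time. The medians of the 13 were 1.24, 0.78 and 0.65 log2 at 22 °C, 24 h and 7 d, against member medians of 0.09, 0.77 and 0.49. The 13 summed to 14933 and 25656 RPKM at 24 h and 15008 and 26484 RPKM at 7 d. The 16 brown adipocyte markers summed to 6182 RPKM in Control and 1463 RPKM in KO at 22 °C, with 1 higher and 11 lower in KO. At 24 h they summed to 10201 and 9146 RPKM, with 3 higher and 2 lower. At 7 d they summed to 8276 and 7208 RPKM, with 2 higher and 1 lower. Ucp1, the uncoupling protein of brown fat, was at 1607 RPKM in Control and 32.8 RPKM in KO at 22 °C, at 4966 and 3884 RPKM at 24 h, and at 2948 and 2163 RPKM at 7 d, so its defining marker was present in every group. No marker of these lists was listed at 0 in any group. The part of these cell types in the members' changes was not tested.

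**Figure D4:**
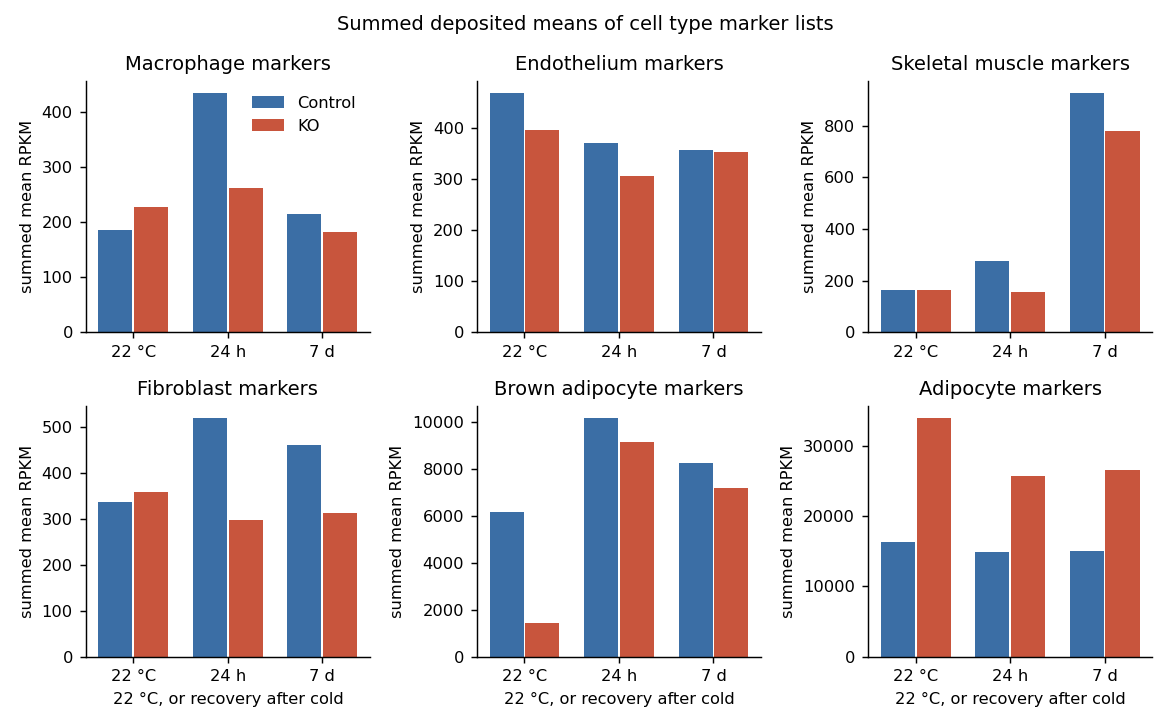
Summed deposited means in RPKM (vertical axes, from 0, a scale per panel) of 6 lists of cell type markers in Control and KO at 22 °C and at 24 h and 7 d of recovery after cold; each bar is 1 group, with no error shown. Macrophage markers are highest in Control at 24 h (435 RPKM), muscle markers in both genotypes at 7 d (927 and 779 RPKM), and brown adipocyte markers are lowest in KO at 22 °C (1463 RPKM).

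Other genes of the pathway were followed in 4 lists that leave out the 9 members. Their counts stand beside the shares of all genes called, which were 21.8% in Control recovery, 41.9% in KO recovery, and 34.3%, 18.5% and 15.3% in KO over Control at 22 °C, 24 h and 7 d. The first holds genes that fold, bind, cleave or regulate the lipase. At 22 °C, 7 of its 19 listed genes were higher in KO and 0 lower, with a median deposited log2 fold change of 0.25 against -0.01 over all genes. They included Sort1, a sorting receptor (0.89 ± 0.13, adjusted p = 4.3e-11), P4hb, a protein disulfide isomerase (0.94 ± 0.15, adjusted p = 1.2e-08), and Sdc4, a heparan sulfate proteoglycan (1.06 ± 0.23, adjusted p = 2.9e-05). Sort1 was also higher in KO at 24 h (0.54 ± 0.13) and at 7 d (0.47 ± 0.13). In KO recovery at 24 h 5 of 19 rose and 2 fell, no larger a share than the 41.9% of all genes called there, with a median of 0.05 log2. Among them were the endoplasmic reticulum chaperones Calr (0.99 ± 0.15, adjusted p = 9.4e-10) and Canx (0.46 ± 0.12, adjusted p = 3.7e-04), which rose, and the proprotein convertase Pcsk6, which fell (-0.74 ± 0.15, adjusted p = 1.2e-05). In Control recovery 6 of 20 rose and 0 fell, Calr among them (0.61 ± 0.15, adjusted p = 7.7e-04). KO over Control gave 6 higher and 2 lower of 20 at 24 h, and 4 and 4 of 20 at 7 d.

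Among 12 other lipoprotein receptors and adaptors, 6 rose and 0 fell in Control recovery, and 4 rose and 3 fell in KO recovery, where 22.1% of all genes rose and 19.8% fell. The list medians were 0.53 and 0.14 log2, against 0.01 and -0.02 over all genes. KO over Control gave 2 higher and 2 lower at 22 °C, 3 and 3 at 24 h, and 4 and 2 at 7 d. Scarb1, a receptor of high density lipoprotein, was higher in KO at 24 h (0.58 ± 0.16, adjusted p = 0.00474) and 7 d (0.85 ± 0.17, adjusted p = 1.3e-05). Lrpap1, the chaperone of LRP1, was lower in KO at 22 °C (-0.37 ± 0.12, adjusted p = 0.0123), where Lrp1 itself was higher. It fell with Lrp1 in KO recovery (-0.52 ± 0.13, adjusted p = 2.2e-04) and was lower in KO at 24 h (-0.60 ± 0.13, adjusted p = 5.9e-05), where Lrp1 was not called.

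Of 11 other genes for apolipoproteins, lipid transfer and efflux, 5 were higher in KO and 2 lower at 22 °C, 4 and 2 at 24 h, and 5 and 0 at 7 d. Pltp, the phospholipid transfer protein, was higher at all 3 times (1.36 ± 0.17, 0.61 ± 0.17 and 0.68 ± 0.17), as was Npc2, a lysosomal cholesterol carrier (1.16 ± 0.12, 0.84 ± 0.12 and 0.65 ± 0.11). Lipa, the lysosomal lipase for lipids of endocytosed particles, had deposited means of 44.4 RPKM in Control and 15.4 RPKM in KO at 22 °C (-1.30 ± 0.17, adjusted p = 2.7e-13). At 24 h of recovery it rose 1.57-fold in Control (0.65 ± 0.16, adjusted p = 9.5e-04) and 5.67-fold in KO (2.50 ± 0.17, adjusted p = 1.7e-45). In Control recovery 5 of the 11 rose and 0 fell, and in KO recovery, where 41.9% of all genes were called, 1 rose and 1 fell.

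Of 22 other genes for fatty acid entry and trapping, 10 were higher in KO and 5 lower at 22 °C, 10 and 1 at 24 h, and 6 and 1 at 7 d. Fabp4, the abundant fatty acid binding protein of adipocytes, had the highest level of these, at 8202 RPKM in Control and 16522 RPKM in KO at 22 °C (1.24 ± 0.13, adjusted p = 2.5e-21), and stayed higher at 24 h (1.09 ± 0.12) and 7 d (1.13 ± 0.12). Fabp3, the form of muscle and brown fat, had 567 RPKM in Control and 26.0 RPKM in KO at 22 °C (-4.21 ± 0.38, adjusted p = 2.7e-26) and rose to 986 RPKM in KO at 24 h (5.22 ± 0.40, adjusted p = 8.2e-37). The fatty acid transport proteins split in KO recovery, where Slc27a1 fell (-1.36 ± 0.15, adjusted p = 7.8e-18) and Slc27a2 rose (1.77 ± 0.22, adjusted p = 2.2e-14). Acsl1, an acyl-CoA synthetase, was higher in KO at 24 h (1.14 ± 0.15, adjusted p = 3.1e-12) and 7 d (1.05 ± 0.15, adjusted p = 2.8e-10), and its relative Acsl5 was lower at 7 d (-2.21 ± 0.33, adjusted p = 2.7e-09). In Control recovery 6 of 22 rose and 0 fell, where 13.1% and 8.67% of all genes did, and in KO recovery 8 rose and 5 fell, where 22.1% and 19.8% did.

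**Figure D5:**
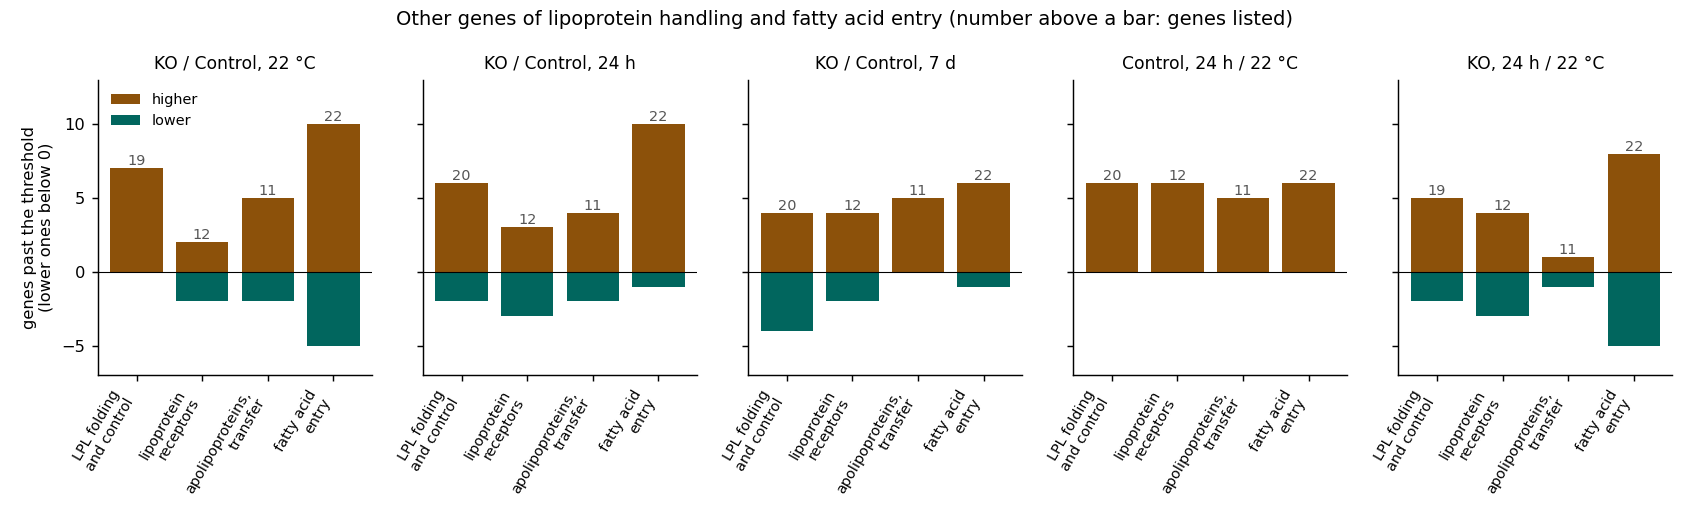
Number of genes called higher (bars above 0) and lower (bars below 0) at an adjusted p of 0.05 in 4 lists of other genes of lipoprotein handling and fatty acid entry (horizontal axes), in each of the 5 deposited comparisons; the number above a bar is how many genes of the list the table holds. The list for fatty acid entry has the tallest bars, with 10 of 22 higher in KO at 22 °C and at 24 h, and no gene of the 4 lists is lower in Control at 24 h against 22 °C.

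The genes most like each member over the 6 group means were found among 10872 genes whose log2 CPM averaged 1 or more, as those with the smallest root mean square difference of log2 means after each gene was centred on its own mean. Nearest to Lpl were Tmem120a (0.157 log2, against a spread of 0.839 for Lpl itself), Ehbp1l1 and Lpcat3, all with their 3 highest means in KO. Lmf1 was nearest to Cib2 (0.061 against 0.562), Fuom and Fam210a, each lowest in KO at 22 °C. Apoe was nearest to Tshr (0.274 against 1.086), Psmb8 and Ralgds, and Lrp1 to Dok1 (0.094 against 0.413), Ampd3 and Dab2ip. Vldlr was nearest to Lpgat1 (0.143 against 0.476), Mfsd8 and Dgat2, and Cd36 to Ncoa1 (0.035 against 0.243), Clp1 and Mtpap. Dgat2, which encodes an enzyme of triglyceride synthesis, had 1743 RPKM in KO at 24 h and 953 to 1390 RPKM elsewhere. Of the 9, Angptl4 lay farthest from its nearest gene, Tmem45b (0.296 against 0.705), followed by Strip2 and Amotl2. Apoc1 was nearest to Dbi (0.140 against 0.380), Dnaja1 and Mmp19, and Gpihbp1 to Zscan21 (0.020 against 0.164) and Scrib. These are likenesses over 6 points that share libraries and scaling, and no member was among the 3 nearest genes of another.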

How the data were processed

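Per the labels' protocols, total RNA of the 24 libraries (TRIzol, RNeasy) was depleted of ribosomal RNA (Ribo-Zero) and prepared with TruSeq. The submitters' processing notes name STAR, featureCounts, edgeR and mm9, without versions. The authors deposited 5 tables of comparisons between groups. Per the file headers, these hold gene length, group means, log2 fold change, log2 CPM averaged over libraries, and a p-value with its false discovery rate, which was computed over 13414 genes. The edgeR test used is not named in the sources. The deposited means carry no unit and were read as RPKM, because CPM rebuilt from them stayed an almost fixed distance from the deposited log2 CPM (median -0.51, quartiles -0.55 and -0.50 log2, 12212 genes). Each table lists genes with a mean of at least about 0.500 RPKM in the higher group, and all 9 genes passed in every table.

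No library values were used, and each comparison rests on the edgeR p that the authors adjusted, at 0.05. Errors were rebuilt as the log2 fold change over the normal score of p (p up to 0.9). Differences of effects used tables that share no library, normal scores and Benjamini-Hochberg adjustment over all genes. On simulated data for the difference of the recovery effect, with 10106 genes, 62 of 95 differences of 1 log2 and 86 of 97 of 2 log2 were called, 0 in the wrong direction, and 5 of 9914 unchanged genes were called. The simulated noise was normal with the rebuilt errors, as the test assumes. A smaller share of genes was changed than the 17.6% called in the data. These counts thus check the calculation and cannot show whether the rebuilt errors hold for these libraries. Library totals came from the smallest differences between deposited means of rarely read genes. Python 3.11.15, numpy 2.4.6, pandas 2.3.3 and SciPy 1.17.1 were used.

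The 9 genes and 14 gene lists were chosen with earlier results of these data known. Named genes were the 9 members, Hdac3 and Ucp1, up to 4 genes per list and comparison with the smallest p past the threshold, and the 3 genes most like each member, passing over predicted loci. Values of a gene named under this rule are given in other groups too, and a few of the genes it selects are not reported here. Alternatives were a threshold of 0.01, a fold of at least 1.5, adjustment over listed genes alone, a log2 CPM of at least 1, ratios of means, and a t score with 18 degrees of freedom.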

Additional observations from a re-analysis of the deposited data

Results flagged for a closer look

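These results stand out because an effect differed between 2 groups by a test of the difference itself, with adjustment over all genes tested. The recovery effect at 24 h, KO minus Control, differed by 1.65 log2 for Angptl4, 1.47 for Vldlr, 0.70 for Cd36 and 0.62 for Lmf1, and by -1.22 for Lrp1 and -0.68 for Lpl. The deposited changes behind the largest of these were -1.89 in Control and -0.25 in KO for Angptl4, and -0.37 and 1.10 for Vldlr.

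The KO effect at 7 d minus that at 22 °C differed by 1.20 log2 for Angptl4, 0.79 for Lmf1 and 0.63 for Vldlr, and by -0.73 for Lrp1. The KO effect at 7 d minus that at 24 h differed by -0.84 log2 for Vldlr. The differences that involve 22 °C share the 22 °C libraries, so they are not separate evidence. No group could be searched for a library that stands apart, since the values used are group means.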

How the results depend on the processing

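No direction of a called result was reversed under any alternative that was run. The number of the 9 genes called stayed within 1.5 times its value in the 5 deposited comparisons and in the differences of the recovery effect and of the KO effect between 7 d and 22 °C. For the KO effect at 7 d minus 24 h, the count of 1 became 3 with the t score of 18 degrees of freedom and 0 at an adjusted p of 0.01. With the t score the rebuilt errors of a member differed between comparisons by up to 90.75 times, against at most 1.07 times with the normal score.

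At an adjusted p of 0.01 calls were lost for Vldlr in Control recovery, in both KO-effect differences, and for Lmf1 in KO against Control at 24 h and in the difference of the recovery effect. A fold of at least 1.5 removed Vldlr in Control recovery, Cd36 in KO recovery and at 7 d, and Lmf1 at 24 h. The t score added Apoe in all 3 differences and Lpl in both KO-effect differences. Over all genes, the stricter threshold of 0.01 changed the calls from 2795 to 1711 in Control recovery, 2342 to 1405 in KO against Control at 24 h, 1910 to 1205 at 7 d, and 1923 to 1252, 1569 to 983 and 21 to 2 in the 3 differences. The fold of 1.5 left 1701, 1409 and 1172 in the first 3 of these, and the t score gave 74 in place of 21.

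No paired analysis was possible because the deposited tables hold group means and comparisons and no value per library. Leaving out each replicate, the replicate block and a count test were not run for the same reason. Depth limits Lmf1 most, at about 132 reads per library in KO at 22 °C.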

Other observations

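A pair of further gene lists was described in the same tables, without any test of a list. Their counts stand beside the shares of all genes called, which were 21.8% in Control recovery, 41.9% in KO recovery, and 34.3%, 18.5% and 15.3% in KO over Control at 22 °C, 24 h and 7 d. Of 11 textbook targets of the sterol-sensing receptor LXR other than the members, 8 were higher in KO at 22 °C and 0 lower, with a median deposited log2 fold change of 1.36 against -0.01 over all genes. They included Lpcat3, a phospholipid acyltransferase (1.79 ± 0.14, adjusted p = 9.5e-35), Srebf1, a regulator of lipid synthesis (2.84-fold, adjusted p = 1.3e-18), and Scd2, a fatty acid desaturase (2.91 ± 0.27, adjusted p = 7.5e-26). In KO recovery, with a median of -0.45 against -0.02, 2 rose and 6 fell, Srebf1 among those that fell (-1.25 ± 0.16, adjusted p = 1.8e-13), and in Control recovery 8 rose and 0 fell, Srebf1 among those that rose (0.74 ± 0.16, adjusted p = 9.5e-05). KO over Control gave 4 higher and 2 lower at 24 h and 5 and 1 at 7 d.

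Of 26 listed textbook targets of the PPAR receptors, 8 were higher and 15 lower in KO at 22 °C, with a median deposited log2 fold change of -0.83 against -0.01 over all genes. Acaa2, an enzyme of mitochondrial fatty acid oxidation, was 10.0-fold lower (-3.32 ± 0.17, adjusted p = 9.3e-81) and Plin2, a coat protein of lipid droplets, 5.94-fold higher (2.57 ± 0.21, adjusted p = 1.3e-33). In KO recovery 17 of 27 rose and 5 fell, where 22.1% and 19.8% of all genes did, with a median of 1.18 against -0.02, and Acaa2 rose by 2.93 ± 0.17 (adjusted p = 2.7e-65). In Control recovery 9 rose and 5 fell, with a median of 0.21 against 0.01. At 24 h 11 of 27 were higher in KO and 2 lower, and at 7 d 7 and 2. Plin2 stayed higher in KO at 24 h (2.25 ± 0.20, adjusted p = 1.6e-25) and 7 d (2.14 ± 0.20, adjusted p = 3.1e-23).

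Of 10 smooth muscle and pericyte markers, none was higher in KO at any time, and 1, 3 and 2 were lower at 22 °C, 24 h and 7 d. Of the Schwann cell markers, 1 of 6 was higher and 1 lower at 22 °C, 0 of 7 and 2 at 24 h, and 0 of 6 and 3 at 7 d. Of all genes, 18%, 7.96% and 6.14% were lower in these tables. S100b was among the lower ones each time, and at 22 °C it was the only one (31.4 RPKM in Control, 0.987 RPKM in KO). It rose in KO recovery (3.77 ± 0.26 log2, adjusted p = 6.9e-45), as Ucp1 did.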
